A study of Mus musculus with 6 samples.

Results

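The 8 genes described here encode proteins of cell death by killing ligands and by membrane rupture: the ligands Fasl and Tnfsf10, the receptor Fas, and the intracellular proteins Casp8, Ripk3, Mlkl, Zbp1 and Gsdmd. They were chosen by name, and each has a value in all 6 mice, so they are 8 of the 16158 genes measured. Single-cell RNA had been sequenced from the skin of 6 mice, 2 in each of 3 groups, in a study whose title concerns PD-1 and effector CD8 T cells in skin. The question put to the data was where ligands, receptor and executioners were found among skin cells, and how their levels differed between the groups.

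All mice were of the NINJA strain, engineered so that a neoantigen is expressed only after a switch, and were 6-12 weeks old. In every group the cells came from skin treated with 4-OH-Tam, and P14 CD8 T cells (the progeny of a receptor-transgenic line) had been examined in each mouse. The groups were antigen off (NO_AG), antigen on (AG) and antigen on with CPI (AG_CPI). The cell type or promoter that drives the switch, the agent or schedule behind CPI and the number of P14 cells a mouse received are not given in the sources used here. The 10x Genomics 5' kit used here tags captured RNA molecules with unique molecular identifiers (UMIs). Levels below are a gene's UMIs per 10000 of its cell, as the mean of all cells of a class in a mouse.

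Fas ligand and TRAIL, the product of Tnfsf10, are trimeric ligands of the tumour necrosis factor family that cytotoxic lymphocytes place on their surface. Fas carries a death domain, through which the engaged receptor recruits an adaptor and the protease caspase-8, which starts apoptosis. Caspase-8 also restrains necroptosis, in which the kinase RIPK3 phosphorylates the pseudokinase MLKL and MLKL breaks the plasma membrane. ZBP1, a sensor of Z-form nucleic acids induced by interferons, can activate RIPK3 directly. Gasdermin D, from Gsdmd, forms pores after inflammatory caspases cleave it, the step that defines pyroptosis. In skin, keratinocytes that lose the caspase-8 brake are known to undergo necroptosis, and Langerhans cells and macrophages are the resident phagocytes.

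Cells were clustered and named from marker genes, and each name with the suffix -like rests on markers alone. The number of cells per mouse ran from 125 to 823 for CD8 T cells and from 193 to 2514 for keratinocyte-like cells. Monocyte/macrophage-like cells, led by C1qa, C1qb, C1qc and Ms4a7, numbered 159 and 537 in the AG mice and 243 and 205 in the AG_CPI mice, but 7 and 2 in the NO_AG mice, so they were compared between AG_CPI and AG only. Median UMIs per cell ranged from 2527 to 4744 between libraries, and any pair of libraries shared 5 to 35 cell barcodes. Outside the T cells, AG_CPI 1 had Ddx3y in 16.2% and Xist in 2.17% of 507 cells. The other 5 mice had Ddx3y in 0% and Xist in 67.0% to 86.0%, so AG_CPI 1 stood apart by sex. Keratinocyte-like clusters 33 and 22 came mostly from AG 2, with 607 of 647 and 498 of 552 cells. With 2 mice a group, an exact permutation test cannot give a two-sided p under 0.33, so the tests below are from limma, which borrows the spread across all genes, with Benjamini-Hochberg adjustment over all genes of the class.

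Fasl was found mainly in T cells, and its level in CD8 T cells was higher in AG_CPI than in NO_AG. CD8 T cells of the NO_AG mice held 0.325 and 0.408, those of AG 0.556 and 0.601, and those of AG_CPI 0.792 and 0.791. The 3 groups did not overlap, with NO_AG lowest and AG_CPI highest. AG_CPI exceeded NO_AG 2.16-fold, from 0.367 ± 0.0586 to 0.791 ± 0.00124 (SD, n = 2), a limma log2 difference of 1.03 (SE 0.20, 95% interval 0.60 to 1.46, adjusted p 0.0096). It was the 1 called among the 7 genes of the 8 that passed the filter on low values, where 3.99% of the 7244 genes tested were called. The AG value lay 0.65 above NO_AG (0.23 to 1.08, limma adjusted p 0.141) and the AG_CPI value 0.38 above AG (-0.05 to 0.80, limma adjusted p 0.932), and neither passed the threshold. Leaving out NO_AG 1, AG_CPI 1 or AG_CPI 2 ended the call, with log2 differences between 0.90 and 1.14 over the 6 omissions. The call was also lost with no filter on low values (1.03, limma adjusted p 0.052). It was lost as well with each cell thinned to 1500 UMIs (0.90, limma adjusted p 0.0746). The 3 group comparisons share mice, so they are not independent of each other.

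The share of CD8 T cells with a Fasl UMI ran in the same order: 8.0% and 9.97% in NO_AG, 14.6% and 16.2% in AG, then 17.2% and 20.3% in AG_CPI. For the lowest and the highest mouse the exact Clopper-Pearson 95% intervals were 3.9% to 14.2% and 17.6% to 23.2%, and such intervals cover counting error only. After each cell was thinned to 1500 UMIs the shares were 4.80%, 6.82%, 7.68%, 8.55%, 10.5% and 10.4%. Keratinocyte-like cells, which should lack Fasl, had a UMI in 0 of 2514 cells of NO_AG 1, which allows a share of up to 0.119% (3 counts of the total, the limit used below for a count of 0), and in at most 1.55%, in AG_CPI 1. Their median depth was 5116.5 UMIs in NO_AG 1 against 2310 in its CD8 T cells, and 3629 against 2236 in AG_CPI 1. Macrophage markers in CD8 T cells moved with the group: the 15 markers summed to between 0.995 and 1.21 in NO_AG, 1.44 and 1.51 in AG, then 2.32 and 2.73 in AG_CPI. Macrophage-like cells themselves held Fasl at 0 to 0.0222, below every CD8 T value.

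CD8 T cells of the groups came from different clusters, which were given numbers. Cluster 5, with Gzmc and Xcl1 among its leading genes, held 76.8% and 78.7% of them in NO_AG, 51.4% and 20.6% in AG, then 4.1% and 6.2% in AG_CPI. Cluster 29, led by Gzma and Trbv13-3, held 0.8% and 3.2% in NO_AG, 22.5% and 16.7% in AG, then 67.3% and 64.0% in AG_CPI. Levels by cluster cover every cell of the cluster, not the CD8 T cells alone: cluster 5 had 330 and 426 cells in NO_AG, of which 96 and 300 were CD8 T cells, and cluster 29 had 775 and 833 in AG_CPI, of which 489 and 527 were. Over all cells of cluster 29, Fasl was at 0.647 and 0.609 in AG against 0.779 and 0.808 in AG_CPI. Over all cells of cluster 5 it was at 0.144 and 0.373 in NO_AG, 0.465 and 0.432 in AG, then 0.577 and 0.367 in AG_CPI, where the AG and AG_CPI mice overlapped. Cluster 28, with Gzmb and Ccl5, held 0.965 and 0.762 in AG against 1.34 and 0.962 in AG_CPI. Cluster 24, led by Tnfrsf4, Ctla4 and Foxp3, held 0.0330 to 0.146 in the 6 mice, below clusters 28 and 29 in each mouse with at least 10 cells of both. How far the change in cluster make-up accounts for the Fasl difference was not tested.

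Trbv13-3, the beta segment of the P14 receptor, separates T cells that could be P14 cells from others, although host T cells can also use it. A P14 cell in which no Trbv13-3 UMI was captured would count among the others. CD8 T cells with a Trbv13-3 UMI held Fasl at 0.849 and 0.687 in AG against 0.847 and 0.841 in AG_CPI. Those without one held 0.390 and 0.507 in AG against 0.725 and 0.713 in AG_CPI, against 0.316 and 0.413 in NO_AG. Within each AG and AG_CPI mouse, cells with the segment had the higher level, and the gap was narrower in both AG_CPI mice. The NO_AG mice had only 2 and 11 cells with the segment.

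Other lymphocytes held less Fasl in most mice. T cells with the gamma-delta segment Trdv4, the type known as dendritic epidermal T cells, had 0.0393 and 0.00399 in NO_AG and 0.168 and 0.0379 in AG, from 1 to 8 UMIs. ILC2-like cells, innate lymphocytes of type 2, had 0 UMIs in both NO_AG mice and 4 and 1 UMIs in AG. CD4 T cells ranged from 0.141 to 0.555 over the 6 mice with 2 to 10 UMIs each. No test of Fasl was made in these classes, because it did not pass the filter there.

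Tnfsf10 had another order than Fasl in CD8 T cells, with AG as the low group. CD8 T cells held 1.10 and 1.06 in NO_AG, 0.692 and 0.512 in AG, then 0.944 and 0.902 in AG_CPI. Both AG mice lay below all 4 others, and both AG_CPI mice lay below both NO_AG mice. The limma log2 differences were -0.64 for AG against NO_AG (-1.06 to -0.22, adjusted p 0.143), 0.54 for AG_CPI against AG (0.12 to 0.96, adjusted p 0.662) and -0.10 for AG_CPI against NO_AG (-0.52 to 0.32, adjusted p 0.846). None passed, among 1.96%, 0.179% and 3.99% of genes called in these comparisons. Groups of CD8 T cells that did not overlap were found for 41.2%, 38.7% and 48.8% of genes, so such separation alone was common.

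By cluster, again over every cell of each, Tnfsf10 in cluster 5 was at 1.36 and 1.11 in NO_AG, 0.60 and 0.556 in AG, then 0.745 and 0.987 in AG_CPI. Cluster 29 held 1.11 and 0.762 in AG against 0.972 and 1.15 in AG_CPI, which overlapped. Cluster 28 was lower, at 0.387 and 0.574 in AG against 0.545 and 0.379 in AG_CPI, although it was a cluster of high Fasl. Trdv4 T cells did not show the order of CD8 T cells, with 0.366 and 0.374 in NO_AG and 0.409 and 0.336 in AG (limma log2 difference 0.07, -0.55 to 0.69, adjusted p 0.949). ILC2-like cells had 0.802 and 0.529 in NO_AG and 0.336 and 0.494 in AG (limma log2 difference -0.62, adjusted p 0.964). CD4 T cells had 0.295 and 0.328 in NO_AG, 0.459 and 0.568 in AG, then 0.530 and 0.271 in AG_CPI (limma log2 difference of AG from NO_AG 0.66, adjusted p 0.784). The CD4 T values rest on 21 UMIs in each AG mouse and 4 or 5 in the others, under the filter's 10, so Tnfsf10 was tested there through AG alone. Endothelial-like cells of the 3 mice with at least 10 such cells, NO_AG 1, NO_AG 2 and AG 2, held 0.732, 0.726 and 0.852, from 7, 4 and 14 UMIs. Keratinocyte-like cells of the same mice held 0.0351, 0.0272 and 0.130. Tnfsf10 UMIs were thus not found in lymphocytes alone.

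The promoters of both ligands are shown because CD8 T cells held both ligands, in different orders over the groups. The 250 bases before each start are from RefSeq on GRCm38.p6: chr1:161788496-161788745 on the minus strand for Fasl and chr3:27316827-27317076 on the plus strand for Tnfsf10. Capitals mark matches, on either strand, to GGAAA, the core that NFAT factors bind. They would also mark TGANTCA (an AP-1 site), TTCNNNGAA (a gamma-activated site) and GAAA followed after any 2 bases by GAAA (the core of an interferon-stimulated response element, ISRE). TTTCC is GGAAA read on the other strand.
Fasl: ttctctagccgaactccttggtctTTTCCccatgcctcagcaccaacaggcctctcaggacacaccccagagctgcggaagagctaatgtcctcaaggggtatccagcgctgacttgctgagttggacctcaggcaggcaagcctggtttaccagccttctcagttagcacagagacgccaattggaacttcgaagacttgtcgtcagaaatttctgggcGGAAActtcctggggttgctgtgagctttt
Tnfsf10: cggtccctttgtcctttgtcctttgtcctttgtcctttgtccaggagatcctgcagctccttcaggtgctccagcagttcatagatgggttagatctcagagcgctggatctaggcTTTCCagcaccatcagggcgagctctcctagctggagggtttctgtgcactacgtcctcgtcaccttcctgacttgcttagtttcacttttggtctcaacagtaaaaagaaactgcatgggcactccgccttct
Fasl had a match that ended 222 and another that ended 26 bases before the start, and Tnfsf10 had 1 that ended 130 bases before it. Over 32851 promoters of this length, 55.6% held GGAAA, 6.75% TGANTCA, 7.02% TTCNNNGAA and 2.98% the ISRE core. Neither ligand promoter held a match to the other 3 motifs in this window.

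**Figure D1:**
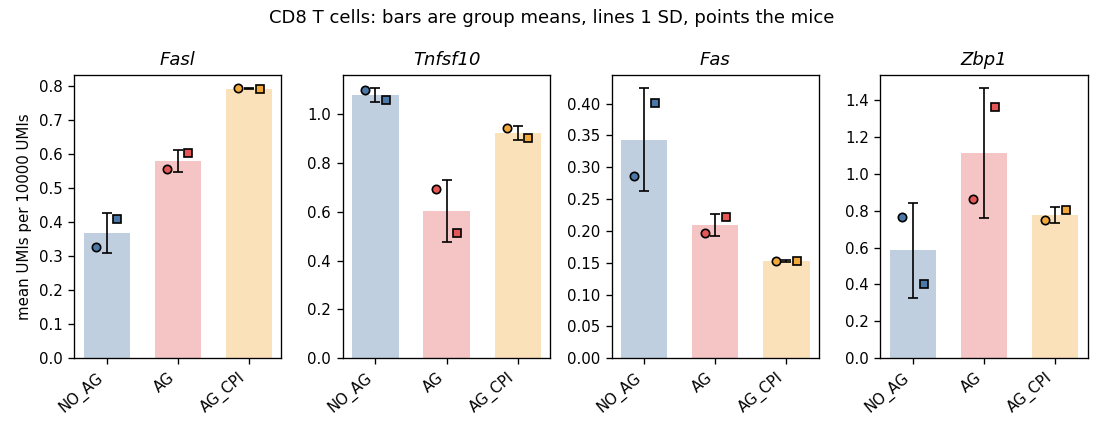
Levels of Fasl, Tnfsf10, Fas and Zbp1 in CD8 T cells, as mean UMIs per 10000 UMIs, by group on the horizontal axis. Bars are group means, lines are 1 SD, circles are replicate 1 and squares replicate 2; Fasl runs upward from about 0.367 in NO_AG to 0.791 in AG_CPI, whereas Tnfsf10 is lowest in AG.

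Fas, the receptor of Fas ligand, was found in lymphocytes and keratinocytes and differed little in keratinocyte-like cells. These held 0.141 and 0.130 in NO_AG, 0.148 and 0.0998 in AG, then 0.108 and 0.0784 in AG_CPI. NO_AG and AG overlapped, and both AG_CPI mice lay below both NO_AG mice. The limma log2 difference was -0.02 for AG against NO_AG (-0.50 to 0.45, adjusted p 0.994) and -0.24 for AG_CPI against NO_AG (-0.71 to 0.23, adjusted p 0.620). In NO_AG the levels of ILC2-like cells (0.638 and 0.599) and Trdv4 T cells (0.414 and 0.450) lay above those of keratinocyte-like cells, and those of CD8 T cells (0.286 and 0.400) did so too. CD4 T cells, at 0.337 and 0.0619 from 3 and 1 UMIs, could not be placed in this order. They held 0.228 and 0.296 in AG against 0.299 and 0.683 in AG_CPI, groups that did not overlap (limma log2 difference 0.55, adjusted p 0.97), as was true of 37.4% of genes there, with 0.0227% called.

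In CD8 T cells Fas ran against Fasl: 0.286 and 0.400 in NO_AG, 0.196 and 0.221 in AG, then 0.153 and 0.152 in AG_CPI. The 3 groups did not overlap, with AG_CPI lowest. AG_CPI lay 0.72 below NO_AG on the log2 scale (limma log2 difference -0.72, -1.21 to -0.22, adjusted p 0.113), which did not pass. The count of Fas UMIs behind these values was 8 in NO_AG 1 and 30 to 44 in the other mice. Cluster 24, with Foxp3 and Ctla4, held, over all its cells, less Fas than CD8 T cells in both NO_AG mice (0.266 and 0.306) and more in the other 4, at 0.469 and 0.483 in AG against 0.494 and 0.672 in AG_CPI.

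Fas was higher in the macrophage-like cells of AG_CPI than of AG, without passing the test. The AG mice held 0.181 and 0.196 and the AG_CPI mice 0.310 and 0.299, groups that did not overlap. The log2 difference was 0.49 (-0.03 to 1.01, limma adjusted p 0.715), where 0.606% of 6601 genes were called and 36.1% did not overlap. In dendritic/Langerhans-like cells Fas was at 0.0631 and 0.0492 in NO_AG, 0.0358 and 0.0860 in AG, then 0.515 and 0.476 in AG_CPI, from 3 to 11 UMIs, and it did not pass the filter there.

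The Fas promoter is printed because it held the most kinds of match among the 6 genes found in the RefSeq promoter table, and that of Mlkl because Mlkl levels stood beside those of Zbp1 in keratinocytes, as given below. Zbp1 and Gsdmd were not among the 6. The sequences are chr19:34290409-34290658 on the plus strand and chr8:111338206-111338455 on the minus strand of GRCm38.p6, with the same motifs in capitals.
Fas: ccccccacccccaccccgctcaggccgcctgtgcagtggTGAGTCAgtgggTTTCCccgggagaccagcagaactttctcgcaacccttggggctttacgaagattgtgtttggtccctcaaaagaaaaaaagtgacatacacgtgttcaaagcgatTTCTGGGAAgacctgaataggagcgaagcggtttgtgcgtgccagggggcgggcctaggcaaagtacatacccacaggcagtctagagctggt
Mlkl: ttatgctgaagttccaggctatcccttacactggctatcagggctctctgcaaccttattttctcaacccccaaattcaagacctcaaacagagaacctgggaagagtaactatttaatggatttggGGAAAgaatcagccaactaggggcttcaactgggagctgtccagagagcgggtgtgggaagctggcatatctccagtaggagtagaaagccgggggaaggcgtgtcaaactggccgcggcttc
Fas held TGANTCA 211 to 205 bases, GGAAA (as TTTCC) 199 to 195 bases and TTCNNNGAA 93 to 85 bases before the start. Mlkl held GGAAA alone, 123 to 119 bases before it, as did Casp8 and Ripk3 at 78 to 74 and 51 to 47 bases. Not every start used here is the outermost start of its gene. The Mlkl window lies inside its gene, at chr8:111311255-111338479. The Casp8 window, chr1:58802252-58802501, lies inside its gene, at chr1:58795233-58847503. The Fas window ends inside its gene, which begins at 34290647. The ISRE core was matched in 0 of the 6 promoters within this window.

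Casp8, the protease that links the receptor to apoptosis, hardly varied in keratinocyte-like cells. The mice held 0.246 and 0.247 in NO_AG, 0.269 and 0.260 in AG, then 0.145 and 0.267 in AG_CPI, where the low value of AG_CPI 1 rested on 14 UMIs. The limma log2 difference of AG from NO_AG was 0.14 (-0.35 to 0.64, adjusted p 0.944). Macrophage-like cells held more in each of the 4 mice, at 0.749 and 0.968 in AG against 0.678 and 0.701 in AG_CPI. In CD8 T cells the mice ranged from 0.349 in NO_AG 1 to 0.744 in AG 1, with the other 4 between 0.601 and 0.712.

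Ripk3 and Gsdmd were sparse in keratinocyte-like cells and did not pass the filter there. Ripk3 was at 0.0569 and 0.0629 in NO_AG, 0.0916 and 0.138 in AG, then 0.0692 and 0.0443 in AG_CPI. Both AG mice lay above the other 4. Gsdmd was at 0.0236 and 0.0181 in NO_AG, 0.0734 and 0.103 in AG, then 0 and 0.0491 in AG_CPI. In AG_CPI 1 a Gsdmd UMI was found in 0 of 193 keratinocyte-like cells, which allows a share of up to 1.55%. Macrophage-like cells held Gsdmd at 0.984 and 1.08 in AG against 0.902 and 1.12 in AG_CPI, so the keratinocyte-like level was 7.46% and 9.55% of it in the AG mice.

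Mlkl, the membrane-breaking pseudokinase, was higher in keratinocyte-like cells of AG than of NO_AG, but did not pass over all genes. Only AG 1, AG 2 and AG_CPI 1 reached the filter's mean of 0.1, so Mlkl was tested through the groups where it was high. The mice held 0.0215 and 0.0255 in NO_AG, 0.125 and 0.215 in AG, then 0.108 and 0.0820 in AG_CPI. All 4 mice with antigen lay above both without, and the AG mice lay above the AG_CPI mice. The ratio of the AG mean to the NO_AG mean was 7.21, and the limma log2 difference, which a pseudocount of 0.1 shrinks at such low levels, was 1.14 (0.64 to 1.63, adjusted p 0.125). AG_CPI differed from NO_AG by 0.68 (0.19 to 1.17, limma adjusted p 0.233). In clusters 2, 4 and 8, the keratinocyte-like clusters with at least 10 cells in every mouse, Mlkl was at 0.0320 and 0.0245 in NO_AG, 0.107 and 0.0795 in AG, then 0.0640 and 0.113 in AG_CPI. There the log2 difference of AG from NO_AG was 0.63 (limma adjusted p 0.465). Cluster 33, led by Krt6a and Krt16, keratins of activated epidermis, held 0.325 in AG 2, the mouse that supplied nearly all its cells. Cluster 16, a basal-type cluster mostly from AG 1, held 0.387 in the 95 cells of AG 1 and 0.644 in the 17 cells of AG 2. Endothelial-like cells held Mlkl in NO_AG too, at 0.523 and 0.161, against 0.200 in AG 2, from 6, 2 and 6 UMIs.

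**Figure D2:**
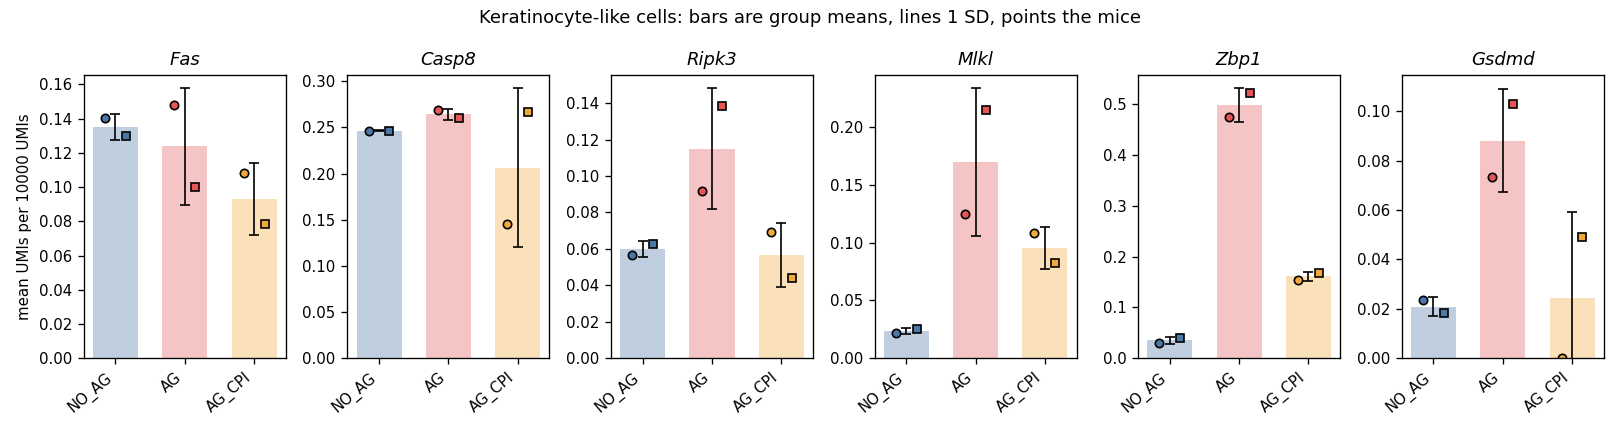
Levels of the receptor and the 5 intracellular genes in keratinocyte-like cells, as mean UMIs per 10000 UMIs, by group on the horizontal axis, with bars for group means, lines for 1 SD (not drawn below 0), circles for replicate 1 and squares for replicate 2. Zbp1 and Mlkl are near the floor in NO_AG and highest in AG, while Fas and Casp8 stay between 0.0784 and 0.269 in the 6 mice.

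Zbp1 rose in keratinocyte-like cells of AG. The mice held 0.0301 and 0.04 in NO_AG, 0.476 and 0.522 in AG, then 0.155 and 0.168 in AG_CPI. The 3 groups did not overlap: AG was highest and AG_CPI lay between the others. From 0.0351 ± 0.00704 to 0.499 ± 0.0327 (SD, n = 2) the mean of AG was 14.2 times that of NO_AG, a log2 difference of 2.19 with the pseudocount (SE 0.15, 1.84 to 2.55, limma adjusted p 0.0022). Both NO_AG mice were below the filter's mean of 0.1, so Zbp1 too was tested through the mice with antigen alone. It was the 1 called of the 4 genes that passed the filter in this class, where 0.434% of 8300 genes were called. AG_CPI lay 0.99 above NO_AG (0.63 to 1.34, limma adjusted p 0.0657) among 0.205% called. It lay 1.21 below AG (limma log2 difference -1.21, -1.56 to -0.85, unadjusted p 8.98e-05, adjusted p 0.246), a comparison in which 0% of the 8300 genes were called and 725 had an unadjusted p under 0.05. Groups that did not overlap were found for 43.3% of genes between AG and NO_AG, 32.6% between AG_CPI and AG, and 52.4% between AG_CPI and NO_AG.

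A Zbp1 UMI was found in 1.47% and 2.23% of keratinocyte-like cells in NO_AG, 20.7% and 14.2% in AG, then 6.22% and 6.15% in AG_CPI. Thinned to 1500 UMIs, NO_AG had shares of 0.438% and 0.545%, AG of 6.24% and 7.51%, and AG_CPI of 2.07% and 2.56%. The exact 95% intervals of the thinned shares were 0.272% to 0.973% in NO_AG 2 and 4.88% to 7.84% in AG 1, the mice nearest to each other in these groups. The difference was found within single clusters. In cluster 8, with suprabasal genes, Zbp1 was at 0.0418 and 0.0490 in NO_AG, 0.337 and 0.442 in AG, then 0.144 and 0.226 in AG_CPI. In cluster 4, with Krt15 and Krt5, it was at 0.0185 and 0.0983, 0.381 and 0.304, and 0.307 and 0.240. In cluster 2, with the hair follicle genes Sox9 and Lhx2, it was at 0.00324 and 0.00675, 0.0643 and 0.270, and 0.136 and 0. Over these 3 clusters alone AG remained above NO_AG, at 0.283 and 0.357 against 0.0180 and 0.0354, and the call held.

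Markers of other cell types in keratinocyte-like cells were measured beside these values. The sum of C1qa, C1qb and C1qc was 0.0402 to 0.0429 in NO_AG, 0.0472 to 2.33 in AG and 1.10 to 1.63 in AG_CPI. In AG 1 it was 0.0310% of the macrophage-like level of the same mouse, while Zbp1 was at 18.6% of its macrophage-like level. In AG 2 the C1q sum was at 2.38% and Zbp1 at 19.3%. In AG_CPI the C1q sum was at 0.880% and 1.06% and Zbp1 at 9.02% and 7.56%. Mlkl was at 59.4% and 120% in AG, and Gsdmd at 7.46% and 9.55%. Of the 15 macrophage markers, both AG mice lay above both NO_AG mice for 7 and below for 0. The list summed to 44.7 to 55.3 in NO_AG, 38.3 to 58.5 in AG and 34.7 to 40.5 in AG_CPI, of which Apoe, a gene that keratinocytes also express, made up 86.4% to 97.1%. The other 14 summed to 1.63 and 1.47 in NO_AG, 1.93 and 5.19 in AG, then 4.63 and 3.77 in AG_CPI. Cd3d, Cd3e and Cd3g together were at 1.27% and 6.12% of the CD8 T level in the AG mice, and Zbp1 at 55.2% and 38.3%.

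**Figure D3:**
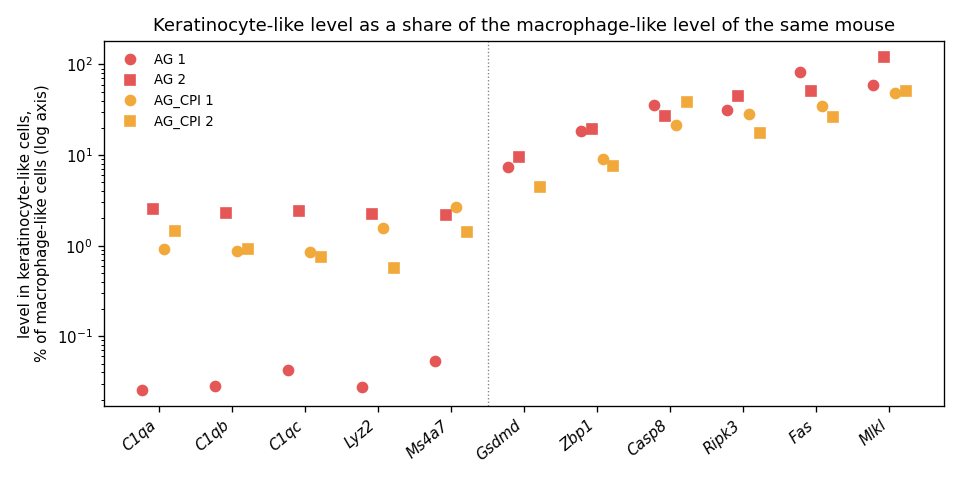
Level of each gene in keratinocyte-like cells as a percentage of its level in macrophage-like cells of the same mouse, on a log axis, for the AG and AG_CPI mice (circles replicate 1, squares replicate 2; a value of 0 is not drawn). The 5 macrophage markers to the left of the dotted line lie below 3%, Zbp1 lies between 7.56% and 19.3%, and Fas, Casp8, Ripk3 and Mlkl lie at 17.3% or above.

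Zbp1 was also higher in the T and innate lymphocytes of AG than of NO_AG, in each case without a call in the main fit. CD8 T cells held 0.768 and 0.403 in NO_AG, 0.862 and 1.36 in AG, then 0.747 and 0.806 in AG_CPI. AG lay above NO_AG (limma log2 difference 0.96, 0.39 to 1.53, adjusted p 0.101), while AG_CPI overlapped NO_AG. Without AG 1 the difference was 1.26 (limma adjusted p 0.0434), but AG was then 1 mouse, whose spread was taken from the other groups. Trdv4 T cells held 0.268 and 0.468 in NO_AG and 1.5 and 1.23 in AG (limma log2 difference 1.76, 1.09 to 2.43, adjusted p 0.567). That comparison called 0% of 7172 genes, with 566 at an unadjusted p under 0.05, of which Zbp1 was 1. Without AG 1 or AG 2 the Zbp1 difference was 1.63 or 1.90, with 1 AG mouse left. With replicate number as a further term it was 1.76 and passed (limma adjusted p 0.0383), although the labels pair nothing by that number. ILC2-like cells held 0.398 and 0.344 in NO_AG and 0.714 and 1.28 in AG (limma log2 difference 1.14, adjusted p 0.964), where 0% of 4636 genes were called and 196 had an unadjusted p under 0.05. Without AG 1 it was 1.41 (limma adjusted p 0.000431), again with 1 AG mouse, in a fit that called 729 genes. CD4 T cells held 0.155 and 0.704 in NO_AG and 1.27 and 1.52 in AG (limma log2 difference 1.81, adjusted p 0.492), among 0.136% called. The AG and NO_AG mice did not overlap for 41.3%, 33.8% and 42.7% of genes in these last 3 classes. A small T cluster, number 11, with Ifi208, Ifi214 and Mx1 among its leading genes, held 8.62 and 6.49 in AG against 4.41 and 4.78 in AG_CPI from 11 to 39 cells a mouse, the highest levels of any class or cluster with at least 10 cells that is named here.

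Macrophage-like cells held the highest Zbp1 of the cell classes with at least 10 cells, in each AG and AG_CPI mouse but for the 10 ILC2-like cells of AG_CPI 2. AG had 2.56 and 2.71 and AG_CPI had 1.71 and 2.22, so AG_CPI lay below without overlap (limma log2 difference -0.41, -0.84 to 0.02, adjusted p 0.707). Gsdmd in the same cells was at 0.984 and 1.08 against 0.902 and 1.12 (-0.03, -0.49 to 0.43, limma adjusted p 0.990). Ripk3 was at 0.291 and 0.312 in AG against 0.241 and 0.255 in AG_CPI (-0.20, limma adjusted p 0.923). Mlkl was at 0.210 and 0.179 against 0.222 and 0.162 (-0.02, -0.56 to 0.53, limma adjusted p 0.997). Of the 7 genes that passed the filter in macrophage-like cells, limma called 0 between AG_CPI and AG, and 0 had an unadjusted p under 0.05, where 0.606% of the 6601 genes were called and 483 had such a p. Not every class had more Zbp1 with antigen. Endothelial-like cells held 0.915 and 1.19 in NO_AG against 0.895 in AG 2, from 37, 12 and 43 cells. Fibroblast-like cells held 0 and 0.0868 in NO_AG against 0 and 0.483 in AG, which overlapped.

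Dendritic/Langerhans-like cells could be compared between all 3 groups, and Zbp1 rose in them. They held 0.0790 and 0.0937 in NO_AG, 0.603 and 1.38 in AG, then 1.30 and 1.96 in AG_CPI. Both NO_AG mice lay below the other 4 and below the filter's mean of 0.1, so Zbp1 was tested here through the mice with antigen alone. AG exceeded NO_AG by 2.55 (SE 0.40, limma adjusted p 0.0142), where 3.11% of 6942 genes were called, and AG_CPI exceeded NO_AG by 3.31 (limma adjusted p 0.00116), where 15.1% were called. Without AG 2 the AG value was 2.00 and without NO_AG 1 it was 2.47, and the call was lost in both. With no filter on low values it was 2.55 and did not pass either (limma adjusted p 0.0665). Gsdmd was at 0.340 and 0.124 in NO_AG, 0.474 and 0.701 in AG, then 0.682 and 0.655 in AG_CPI. AG_CPI exceeded NO_AG in Gsdmd by 1.44 (limma adjusted p 0.0375), and AG by 1.23, which did not pass (limma adjusted p 0.157). The Gsdmd call of AG_CPI held in 9 of 17 alternatives, and after thinning the difference was 0.30 (limma adjusted p 0.872). Without NO_AG 2 the difference was 0.97 and the call was lost. The call was also lost without NO_AG 1, AG 1 or AG 2, at differences of 1.89, 1.44 and 1.39. Between AG_CPI and AG, Zbp1 differed by 0.77 (-0.13 to 1.67, limma adjusted p 0.389) with overlapping groups, and 0.317% of genes were called. No overlap with NO_AG was found for 54.4% of genes in AG and 59% in AG_CPI. Casp8 was at 0.579 and 0.678, 0.535 and 0.986, and 0.288 and 0.994, and overlapped between all groups.

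This class held different cells in the different groups, and that cannot be told apart from a change of level in the pooled values. Cd207, which encodes langerin and marks Langerhans cells, was at 18.3 to 18.5 in NO_AG, 3.44 to 9.21 in AG and 1.39 to 1.69 in AG_CPI. Cluster 20, led by Cd207, had 227 and 136 cells in the NO_AG mice, 35 in each AG mouse and 0 in AG_CPI. Within it Zbp1 was at 0.0185 and 0.00627 in NO_AG, from 2 and 1 UMIs, and at 0.224 and 1.05 in AG, from 5 and 25 UMIs. Cluster 23, with Ccl22, Mgl2 and Ccr7, held 0.378 and 0.660 in NO_AG, 0.944 and 1.5 in AG, then 1.30 and 1.96 in AG_CPI. In both clusters the mice with antigen lay above those without. Gsdmd did not separate within cluster 23, with 0.726 and 0.198 in NO_AG against 0.644 and 0.763 in AG against 0.682 and 0.655 in AG_CPI.

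**Figure D4:**
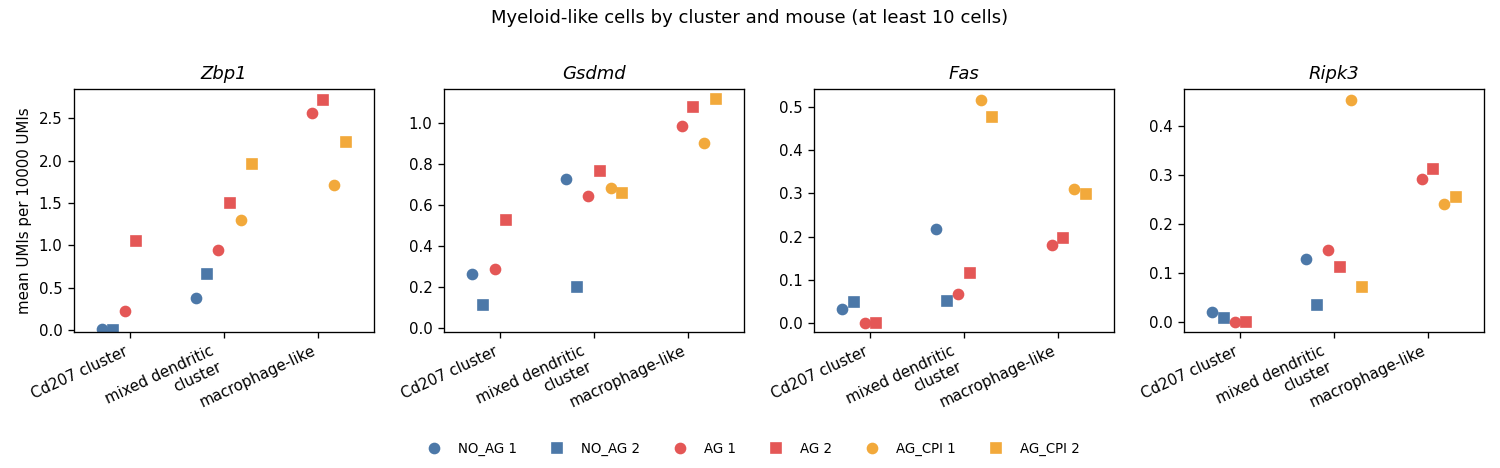
Levels of Zbp1, Gsdmd, Fas and Ripk3 in the Cd207 cluster, the mixed dendritic cluster and macrophage-like cells, as mean UMIs per 10000 UMIs, with 1 point per mouse that had at least 10 cells (circles replicate 1, squares replicate 2, colours the groups). Zbp1 lies above the NO_AG points in the AG mice of both dendritic clusters and is highest in macrophage-like cells.

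Pooled over macrophage-like and dendritic/Langerhans-like cells, 6 of the 8 genes passed the filter (not Fasl and Tnfsf10). Zbp1 was at 0.0895 and 0.138 in NO_AG, 1.94 and 2.45 in AG, then 1.68 and 2.18 in AG_CPI (AG against NO_AG 3.62, limma adjusted p 4.95e-08). In AG and AG_CPI, Gsdmd lay above NO_AG by 1.92 and 2.04, Ripk3 by 1.57 and 1.61, Mlkl by 1.36 and 1.45 and Fas by 0.84 and 1.64 (limma adjusted p 9.28e-05, 3.94e-05, 0.000122, 7.56e-05, 0.000384, 0.000172, 0.0104 and 5.30e-05 in that order). Mlkl (0.00690 and 0.00570), Ripk3 (0.0376 and 0.0122) and Fas (0.0615 and 0.0486) were below the filter's mean of 0.1 in both NO_AG mice, so these 3 were tested through the mice with antigen alone. The Fas call in AG was lost with doublets kept (0.58, limma adjusted p 0.061), without NO_AG 2 (0.78) and without AG 2 (0.73). The Ripk3 call in AG was lost after thinning (1.2, limma adjusted p 0.0773). Casp8 lay 0.59 and 0.42 above NO_AG (limma adjusted p 0.0526 and 0.149), and the AG value passed in 6 of 18 alternatives, among them without AG 1 (0.80, limma adjusted p 0.0221). In these comparisons 28% and 33.8% of 7592 genes were called, so a call was common, and 63.2% and 68.2% did not overlap. Between AG_CPI and AG, Fas differed by 0.80 (limma adjusted p 0.156) without overlap, where 0.461% were called and 38.3% did not overlap. The pool passes from Langerhans cells to macrophages: its summed C1qa, C1qb and C1qc were 8.68 to 14.2 in NO_AG, 83.5 to 109 in AG and 115 to 135 in AG_CPI. A change within cells and this change of make-up cannot be told apart in the pool.

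**Figure D5:**
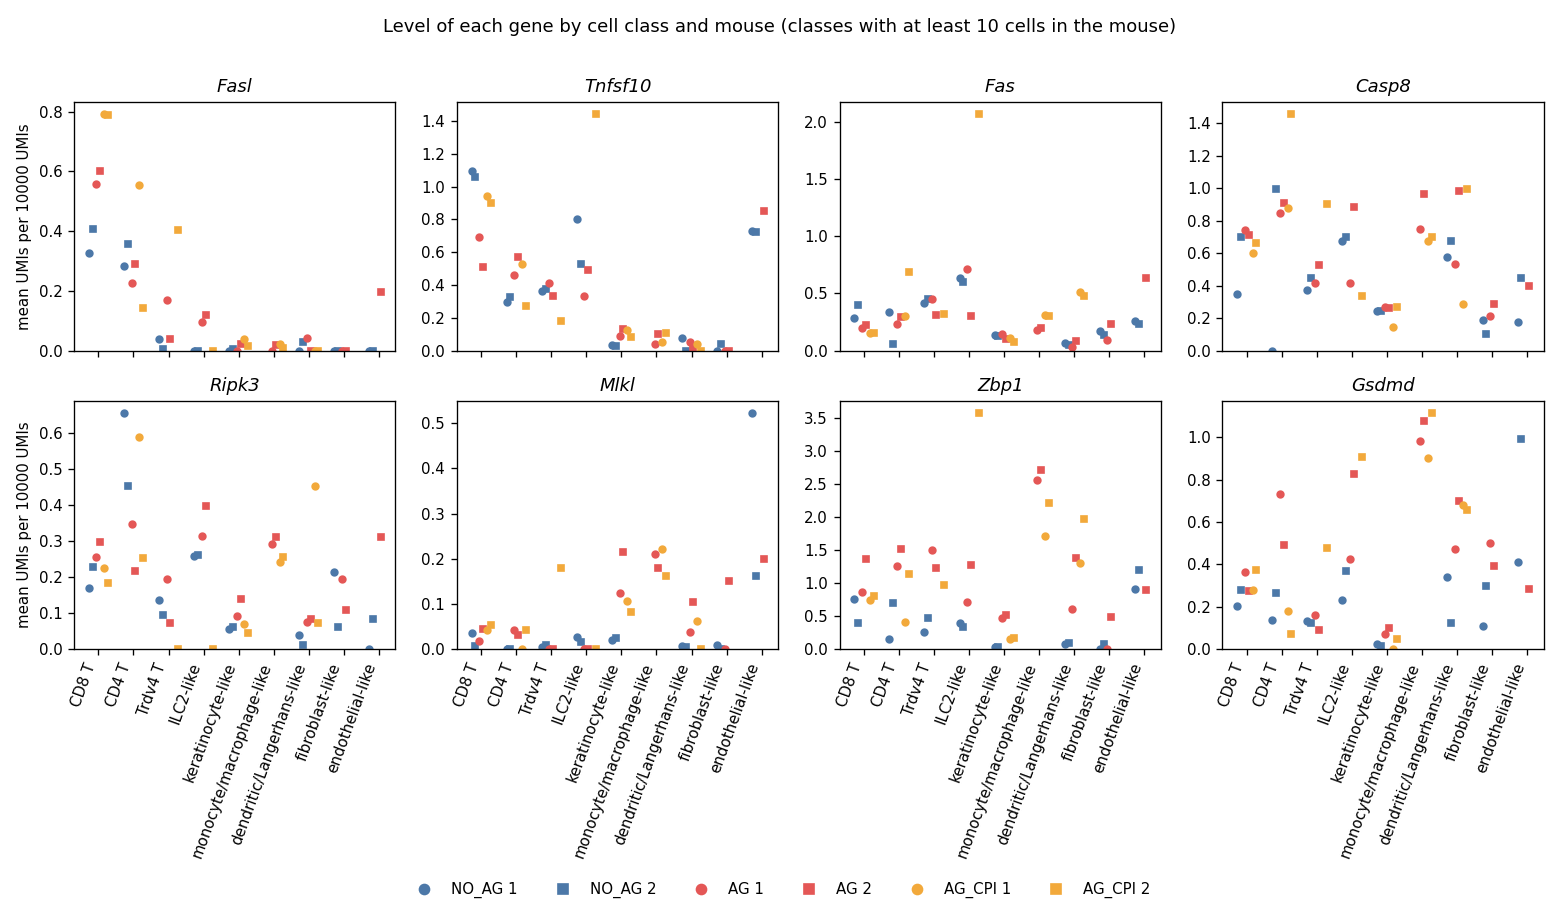
Levels of all 8 genes by cell class, as mean UMIs per 10000 UMIs, with 1 point per mouse that had at least 10 cells of the class (circles replicate 1, squares replicate 2, colours the groups). Fasl stands out in CD8 T cells, Zbp1 and Gsdmd in macrophage-like cells, and Tnfsf10 in CD8 T and endothelial-like cells. The ILC2-like point of AG_CPI 2, high for Zbp1 and Tnfsf10, rests on 10 cells.

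Other genes of these pathways were followed as lists. In keratinocyte-like cells of AG against NO_AG, 12 tested genes of inflammasomes, gasdermins and pyroptosis had a median log2 difference of 0.71 and 7 other nucleic acid sensors one of 1.16, against -0.01 over all 8300 genes. All 12 and all 7 were higher in AG, as were 4017 of the 8300 genes, and 1 gene of each list was called, where 0.434% of all genes were. Of the lists, 25 and 12 genes had a value. Those low in NO_AG could pass the filter only through mice with antigen, which favours a higher direction. No test of the lists was made. Gbp2, an interferon-induced GTPase, rose by 2.51 (limma adjusted p 0.0131), from 0.389 and 0.330 to 2.26 and 2.48. Oas1a, a sensor of double-stranded RNA with close paralogs that make its counts uncertain, lay 2.28 higher (limma adjusted p 0.00246), at 0.652 and 0.597 against 0.0424 and 0.0685. Both NO_AG values were below the filter's mean of 0.1, so Oas1a was tested through the mice with antigen alone. The TNF family (5 genes), the adaptors and brakes of the death complex (19 genes) and the mitochondrial apoptosis genes (14 genes) had 0 calls, 0, 0 and 1 genes at an unadjusted p under 0.05, and medians of 0.14, 0.07 and 0.12, where 600 of the 8300 genes had such a p.

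When AG_CPI was set against AG in keratinocyte-like cells, limma called 0 genes of these 5 lists, and 0% of all 8300 genes, of which 725 had an unadjusted p under 0.05. The sensors had a median of -0.51 with 0 of 7 higher and 4 at an unadjusted p under 0.05, and the pyroptosis genes one of -0.27 with 2 of 12 higher, against -0.03 over all genes, of which 3809 of 8300 were higher. Against NO_AG, Oas1a lay 1.47 higher in AG_CPI (limma adjusted p 0.0318), where 0.205% of genes were called and the same limit of the filter holds.

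In CD8 T cells, Tnfrsf9, the costimulatory receptor 4-1BB, was the leading TNF family gene. It rose from 0.368 and 0.449 in NO_AG to 2.62 and 2.49 in AG, then 2.35 and 2.49 in AG_CPI (AG against NO_AG 2.5, limma adjusted p 1.91e-06). Of the 10 TNF family genes tested it was the 1 called in AG, where 1.96% of genes were called, and the list's median was -0.14 against 0.04 over all 7244 genes. In AG_CPI against NO_AG the list had 2 genes called higher, Tnfrsf9 and Tnfrsf1b (0.92), and 1 lower, Cd40lg, the ligand of CD40 (-1.72, limma adjusted p 0.0180), where 3.99% of the 7244 genes were called. In the list of mitochondrial apoptosis genes, those called higher there included Bcl2a1d and Bcl2a1b (1.64 and 1.17), survival genes with near-identical copies, so how reads divide between them is uncertain. In AG against NO_AG, Bcl2a1d and Gbp2 rose (0.88 and 1.16, limma adjusted p 0.0335 and 0.0249).

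In macrophage-like cells of AG_CPI against AG, 1 of the 11 TNF family genes tested was called higher and 1 lower, where 0.606% of 6601 genes were called. Tnf itself fell from 1.86 and 1.19 in AG to 0.403 and 0.674 in AG_CPI (log2 difference -1.35, limma adjusted p 0.0119), and Tnfrsf9 rose by 1.34 (limma adjusted p 0.0119). The other lists had 0 calls, and the sensors had a median of -0.32 with 1 of 10 higher, against 3282 of the 6601 genes.

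Across 45 profiles of a class in a mouse, the genes most like each member were named by Pearson r over 12160 genes. The profiles share libraries, depth and cell types, so these values describe where a gene is found. Fasl was most like Sh2d1a (0.88), Gimap3 (0.88) and Cxcr3 (0.88), genes of T cells, and Tnfsf10 like Grap (0.84), Ets1 (0.83) and Gimap1 (0.83). Zbp1 was most like Psmb10 (0.91), a subunit of the immunoproteasome, Psme1 (0.89), its activator, and Samhd1 (0.86). Mlkl was most like Ifi44 (0.76), Pdpn (0.74) and Xaf1 (0.74), and Casp8 like Slfn8 (0.79), Nckap1l (0.72) and Arpc3 (0.71). Ripk3 went with Kif3b (0.74), Stx11 (0.73) and Syt11 (0.69), and Gsdmd with Slfn5 (0.73), Fth1 (0.72) and Cyba (0.72). Fas had the weakest neighbours, Rnf128 (0.65), Rexo2 (0.64) and Csf2 (0.64). Between members, r was 0.65 for Zbp1 with Gsdmd and 0.59 for Fasl with Tnfsf10.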

How the data were processed

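Single-cell RNA of 6 skin samples had been made with a 10x Genomics 5' kit, per the labels' protocols, and Cell Ranger version 3.1 and the build mm10 are named in the submitters' processing notes. Each deposited value is the log10 of 1 plus a gene's UMIs per 10000 of its cell. No header states this unit. Inverted with base 10, 100% of values came within 0.02 of a whole UMI, whereas natural logarithms gave 65.7% to 68.3%. Total UMIs per library ran from 5903724 to 24656382.

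Values were inverted. Cells with under 200 genes or over 20% mitochondrial UMIs were dropped (51 of 21178). Scrublet in scanpy 1.11.5 scored doublets, and the top 0.8% per 1000 cells of a library were removed (666), which left 20461. Clustering (2000 variable genes, 30 components, 15 neighbours, Leiden resolution 1) gave 48 clusters, of which 43 were named when at least 3 markers stood among their top 50 genes by fold. This naming rule was settled after the clusters' leading genes had been seen. CD8 T cells had a Cd8a or Cd8b1 UMI and none of Cd4 or Trdc. Clusters used 3 of the 8 genes among the variable genes.

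For each class and mouse with at least 10 cells, means were scaled by trimmed mean of M-values, converted to log2 after adding 0.1, and fitted by limma-trend (limma 3.58.1, R 4.3.3, Python 3.11.15) with group as the only term. The added 0.1 makes a log2 difference understate the change of low genes. Genes needed 10 UMIs and a mean of 0.1 in at least 2 libraries. A gene low in some groups could thus be tested through the others alone, in the lists too. The threshold was 0.05 after Benjamini-Hochberg adjustment. A count model had been foreseen if counts were deposited, and was not used on these log10 values. The fit was also run on simulated counts of CD8 T and keratinocyte-like cells, with changes set only in genes above a low level. That run does not cover genes near 0 or classes of few cells, and its outcome is not given here. The p-values measure only the spread between these samples, labelled as biological replicates.

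The 8 genes are always named. Of a list, up to 4 called genes with the smallest p whose groups did not overlap are named, and a gene of the mitochondrial apoptosis list is not reported here. The genes, lists, markers and tests were chosen with earlier results of these data known. Promoters and motifs were read from RefSeq on GRCm38.p6. Alternatives covered the pseudocount, filter, scaling, summed UMIs, thinning to 1500 UMIs, doublets, cell filters, resolution, clustering without the 8 genes, the CD8 gate, a replicate block, leaving out each mouse and, chosen after seeing the data, the first naming rule and the keratinocyte-like clusters found in every mouse.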

Additional observations from a re-analysis of the deposited data

Results flagged for a closer look

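Tnfsf10 moved in opposite directions between AG and NO_AG in different lymphocytes, with every mouse of one group above every mouse of the other. It was above in CD4 T cells (0.66) and below in CD8 T cells (-0.64), a gap of 1.3 on the log2 scale, and below in ILC2-like cells (-0.62), a gap of 1.28 from CD4 T cells. For Fas, AG_CPI lay above AG in CD4 T cells (0.55) and in macrophage-like cells (0.49), and below AG in CD8 T cells (-0.31), gaps of 0.86 and 0.8. None of these single differences passed the threshold, the values in CD4 T cells rest on 1 to 21 UMIs a mouse, and the difference between the classes was not tested. Tnfsf10 in CD4 T cells had at least 10 UMIs in both AG mice alone (21 each, against 4 and 5 in NO_AG), so it passed the filter through the group where it was high.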

How the results depend on the processing

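The Zbp1 difference of AG from NO_AG in keratinocyte-like cells passed under all 19 alternatives run, with values from 0.92 to 3.31. Over the values of single genes, 801 alternatives kept the direction and the side of the threshold, 20 lost a call, 15 gained one and 14 reversed the sign of a value that had no call.

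In CD8 T cells the genes called higher in AG_CPI than in NO_AG numbered 1, and 0 without the filter (Fasl 1.03, limma adjusted p 0.052) and after thinning (0.90, limma adjusted p 0.0746), and 0 to 1 when a mouse was left out. For AG against NO_AG the number was 0, and 0 to 1 with a mouse left out. In keratinocyte-like cells of AG_CPI against NO_AG it was 0, and 1 with a pseudocount of 0.02 (Zbp1 1.79), with summed UMIs (0.96), under stricter cell filters (1.15) and in the clusters found in every mouse (1.05). In dendritic/Langerhans-like cells of AG it was 1, and 0 without the filter (Zbp1 2.55, limma adjusted p 0.0665), 0 after thinning and under the first naming rule, where Zbp1 did not pass the filter and was not tested, and 0 to 1 with a mouse left out. For AG_CPI it was 2, and 1 with a pseudocount of 0.02 and under the deposited scaling, 0 after thinning (Zbp1 again not tested), and 1 to 2 with a mouse left out. In ILC2-like cells both the higher and the lower number were 0, and 0 to 1 with a mouse left out. In Trdv4 T cells the higher number was 0, and 0 to 1 with a mouse left out. The cause of these changes was not tested.

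Replicate numbers pair nothing in the labels, and same-numbered mice correlated at -0.16 to 0.01 in CD8 T cells and 0.09 to 0.12 in keratinocyte-like cells. With the replicate block, the number called higher in Trdv4 T cells was 1 (Zbp1 1.76, limma adjusted p 0.0383).

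Signs that reversed belonged to values near 0. Tnfsf10 in CD8 T cells of AG_CPI against NO_AG was 0.01 after thinning. Fas in keratinocyte-like cells of AG against NO_AG was 0.02 with summed UMIs, 0.16 after thinning, 0.09 in the clusters found in every mouse and -0.21 to 0.15 with a mouse left out. Casp8 there was -0.16 after thinning and -0.13 in the clusters found in every mouse. In macrophage-like cells Mlkl was 0.05 with doublets kept and -0.17 to 0.13 with a mouse left out, and Gsdmd -0.17 to 0.11. Tnfsf10 in Trdv4 T cells was -0.03 with summed UMIs and -0.05 to 0.19 with a mouse left out.

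Calls over all genes moved by more than 1.5 times: from 142 to between 27 and 234 in CD8 T cells of AG against NO_AG, from 289 to between 72 and 363 for AG_CPI against NO_AG, from 36 to between 6 and 93 in keratinocyte-like cells of AG and from 17 to between 0 and 145 in those of AG_CPI. In macrophage-like cells they moved from 40 to between 3 and 438, and in dendritic/Langerhans-like cells from 216 to between 0 and 611 in AG, from 1045 to between 301 and 1977 in AG_CPI and from 22 to between 0 and 568 for AG_CPI against AG. In the pool of both they moved in the same order from 2125 to between 1258 and 2436, from 2566 to between 1476 and 2887 and from 35 to between 2 and 166. In CD4 T cells they moved from 6 to between 1 and 19 in AG and from 1 to between 0 and 2 for AG_CPI against AG, and in CD8 T cells of that comparison from 13 to between 1 and 21. From 0 in Trdv4 T and ILC2-like cells they reached 1946 and 729, and the shares of genes called that stand beside the results shift with them. A mouse left alone in its group was assumed to vary like the other groups. At Leiden resolution 0.5 no ILC2-like class was found, and under the first naming rule the dendritic class of AG_CPI could not be compared. With 2 mice a group and few UMIs a class, small differences were not detectable.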
